A study of Mus musculus with 8 samples.

Results

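Crip1, S100a4, S100a6, S100a10, S100a11, Anxa1, Anxa2, Lgals1 and Lgals3 encode small calcium-binding, membrane-binding, sugar-binding and LIM-domain proteins, and each ranked among the 1718 highest genes of every library. These 9 genes, of 37979 listed, were chosen by name, and each was above 0 FPKM (fragments scaled to the length of the transcript and to the depth of the library) in every library. Crip1 entered as the highest gene of SMC replicate 4, where it had 7790 FPKM and the next gene, Ftl1, had 6938 FPKM. Its levels are therefore described, and it was tested only without that library. Bulk RNAseq was made from muscle pericytes (4 libraries) and muscle SMCs (4 libraries) of hindlimbs. All mice were Ai14+/-;SM22α-Cre+, of both sexes and 3 to 4 months old, so every sorted cell came from an animal that carried the reporter and the Cre transgene. The SM22α promoter drives Cre, which permanently switches on the red protein tdTomato, so a cell that used the promoter at any earlier time is also labeled. Live cells negative for CD31 (endothelial) and CD45 (hematopoietic) and positive for PDGFRβ were collected as pericytes when tdTomato- and as SMCs when tdTomato+. Each library pooled several sorts, and all 8 carry the same batch label. The comparison asks which genes differ between these mural cell populations.

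S100 proteins are small EF-hand proteins that bind calcium and then grip partner proteins. Annexins bind acidic membrane lipids when calcium rises, and S100A10 joins with annexin A2, and S100A11 with annexin A1, into complexes at the plasma membrane that take part in membrane repair, vesicle traffic and plasmin formation. Galectins bind β-galactoside sugars inside and outside the cell, and CRIP1 is a small protein with a single LIM domain, related to the CRP proteins of smooth muscle. In vascular smooth muscle, S100, annexin and galectin genes are known from migration, matrix handling and responses to injury.

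The names pericytes and SMCs stand here for the sorting gates. Of 10 pericyte markers, only Rgs5 passed limma's test at a q value under 0.05, and it was higher in SMCs (6 of the 10 were higher in SMCs at an unadjusted p under 0.05, and 0 in pericytes). Of 8 smooth muscle markers 0 passed the test (4 were higher in SMCs at an unadjusted p under 0.05) and their summed level overlapped (911 to 2845 FPKM in pericytes and 2826 to 8409 FPKM in SMCs). Markers of cells that the gates were set to remove were present. All 9 T and B cell markers were higher in pericytes (summed, 1905 to 3855 FPKM in pericytes and 22.6 to 52.2 FPKM in SMCs, none of them at 0), and 8 of 10 endothelial markers were higher in SMCs (120 to 214 FPKM in pericytes and 523 to 1549 FPKM in SMCs, none at 0). Of 11 fibroblast markers, 10 were higher in SMCs and Dcn, listed at 0 in all SMC libraries, was higher in pericytes (1215 to 2172 FPKM in pericytes and 6273 to 8576 FPKM in SMCs). Macrophage markers overlapped in sum (1041 to 1960 FPKM in pericytes and 1536 to 2257 FPKM in SMCs), and 5 of 10 listed were higher in SMCs. Of the other lists, 3 of 4 tenocyte markers and 1 of 4 satellite cell markers were higher in SMCs. In pericytes, 2 of 7 neutrophil markers and 1 of 7 muscle fibre markers were higher. At an unadjusted p under 0.05, 2 muscle fibre markers were higher in SMCs. Markers of Schwann cells and red blood cells had 0 calls (0 also at an unadjusted p under 0.05). Genes used by every cell were higher in pericytes in sum (9682 to 19561 FPKM in pericytes and 5658 to 8493 FPKM in SMCs), and 2 of 8 passed the test (5 at an unadjusted p under 0.05, and 0 in the other direction). The 9 genes are also expressed by such cells, and the part of these cells in the results below was not tested. In bulk RNA, more cells of a type and more RNA per cell cannot be told apart.

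Pericyte replicate 2 stood apart. Its FPKM summed to 1190435, while the other pericyte libraries summed to 690247 to 782014 and the SMC libraries to 656405 to 737839. The gap followed transcript length. Relative to the median of the other pericyte libraries, the median gene of under 700 bases was at 2.24 times (452 genes), from 700 to under 1500 bases at 1.96 times (1182 genes), from 1500 to under 3000 bases at 1.21 times (2479 genes), and of 3000 bases or more at 0.708 times (2660 genes). Most of the 9 genes are short, and this library was the highest pericyte library for each of them. The tests of the 9 genes are therefore also given without it, and for the other genes of their families those calls that differ without it are named. Leaving it out must lower the pericyte mean of each of the 9 genes. A shift toward SMCs without it was thus fixed in advance and is no separate support.

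The sequences before the start sites are shown for the most abundant gene, for the neighbours S100a4 and S100a6, and for both annexins. They are the 250 bases before the start in RefSeq (GRCm38.p6), 5′ to 3′ on the gene's strand. S100a10 and Lgals1 had no entry, and 7 of the 9 genes matched by symbol. Capitals mark 4 motifs searched on both strands. These are the TATA box, spelled TATAAA, the CCAAT box, which reads ATTGG from the other strand, the letters of an SP1 site, GGGCGG, and those of an AP-1 site, TGANTCA, which read the same on both strands. The windows lie at chr12:113151762-113152011 on the + strand for Crip1, chr3:90603520-90603769 on the + strand for S100a4, chr3:90612644-90612893 on the + strand for S100a6, chr19:20390672-20390921 on the - strand for Anxa1 and chr9:69453433-69453682 on the + strand for Anxa2.
Crip1: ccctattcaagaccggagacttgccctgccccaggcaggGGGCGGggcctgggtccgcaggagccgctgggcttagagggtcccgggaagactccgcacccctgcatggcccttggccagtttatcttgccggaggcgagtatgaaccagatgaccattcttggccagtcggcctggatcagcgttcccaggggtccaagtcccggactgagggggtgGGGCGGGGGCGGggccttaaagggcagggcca
S100a4: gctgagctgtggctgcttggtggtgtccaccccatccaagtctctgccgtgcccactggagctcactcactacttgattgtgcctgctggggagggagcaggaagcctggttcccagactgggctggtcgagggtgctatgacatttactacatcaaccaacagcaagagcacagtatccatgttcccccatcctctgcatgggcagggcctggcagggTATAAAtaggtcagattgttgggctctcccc
S100a6: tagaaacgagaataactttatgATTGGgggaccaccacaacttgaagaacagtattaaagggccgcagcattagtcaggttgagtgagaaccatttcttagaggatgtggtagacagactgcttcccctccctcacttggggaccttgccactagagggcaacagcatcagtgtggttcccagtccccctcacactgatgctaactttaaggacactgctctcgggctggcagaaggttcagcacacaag
Anxa1: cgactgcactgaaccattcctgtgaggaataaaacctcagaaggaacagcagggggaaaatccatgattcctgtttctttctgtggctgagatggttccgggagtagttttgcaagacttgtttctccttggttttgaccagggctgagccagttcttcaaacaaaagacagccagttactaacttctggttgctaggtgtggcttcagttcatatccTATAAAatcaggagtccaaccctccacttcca
Anxa2: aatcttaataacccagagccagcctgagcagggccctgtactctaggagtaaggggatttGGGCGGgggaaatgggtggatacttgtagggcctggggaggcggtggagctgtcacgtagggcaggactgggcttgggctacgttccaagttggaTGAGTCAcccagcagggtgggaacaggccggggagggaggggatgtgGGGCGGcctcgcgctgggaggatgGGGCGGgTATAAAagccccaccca

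None of the searched motifs was in all 7 windows. TATAAA is in the windows of S100a4, Anxa1 and Anxa2 (3 of 7) and in 12.4% of 32851 promoter windows of this length. GGGCGG is in those of Crip1, S100a11, Anxa2 and Lgals3 (4 of 7) and in 32.7% of all windows. CCAAT is in those of S100a6 and Lgals3 (2 of 7; 33.8% of all), and TGANTCA is in those of S100a11 and Anxa2 (2 of 7; 6.75% of all). The CArG box, the site of serum response factor at many smooth muscle genes, was in 0 of 7 windows and in 1.47% of all. S100a4 and S100a6 share none of the searched letters. GC content was 67.2% for Crip1 and 46.0% for Anxa1, with a median of 52.4% over all windows. These are matches of letters and say nothing about which factors bind.

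Crip1 was by far the highest of the 9 genes. Its FPKM was 2296, 6838, 2027 and 4011 in pericyte replicates 1 to 4, and 5590, 4708, 5462 and 7790 in SMC replicates 1 to 4. The groups overlapped because pericyte replicate 2 was above 3 SMC libraries. Crip1 ranked between 1 and 6 among all genes of an SMC library and between 16 and 34 in a pericyte library, and it made up 0.717% to 1.11% of the summed FPKM in SMCs and 0.282% to 0.574% in pericytes. Pericytes averaged 3793 ± 2212 FPKM and SMCs 5887 ± 1327 FPKM (SD, n = 4 each), which is 1.72-fold higher in SMCs on the log2(FPKM + 1) scale. Without SMC replicate 4, the other SMC libraries averaged 5253 ± 477 FPKM (SD, n = 3), and the difference of 0.64 (log2, SE 0.43) did not pass limma's test (q = 0.432), in a fit where 18.2% of genes tested were called. The same comparison passed the test under quantile scaling (log2 difference, pericytes minus SMCs, -1.09, q = 0.0154) and with the transcript-length trend removed (-2.94, q = 0.00137), and did not pass with pericyte replicate 2 (-0.98, q = 0.0627) or pericyte replicate 3 (-0.40, q = 0.642) left out as well. Without pericyte replicate 2, the remaining pericyte libraries averaged 2778 ± 1076 FPKM (SD, n = 3), every SMC library was above them, and the difference with all SMC libraries was 1.12 (log2, SE 0.28), given as a description.

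Crip1 lies on chromosome 12 from 114390223 to 114392088 (NCBI Build 37, + strand) in 5 exons, and its longest annotated transcript has 445 bases, the shortest of the 9. Crip2, which encodes a relative with a pair of LIM domains, lies next to it at 114378447 to 114383715. Crip2 was higher in SMCs and its groups were apart, with 105 to 262 FPKM in pericytes and 488 to 694 FPKM in SMCs (log2 difference 1.74, SE 0.27, q = 0.00393).

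**Figure D1:**
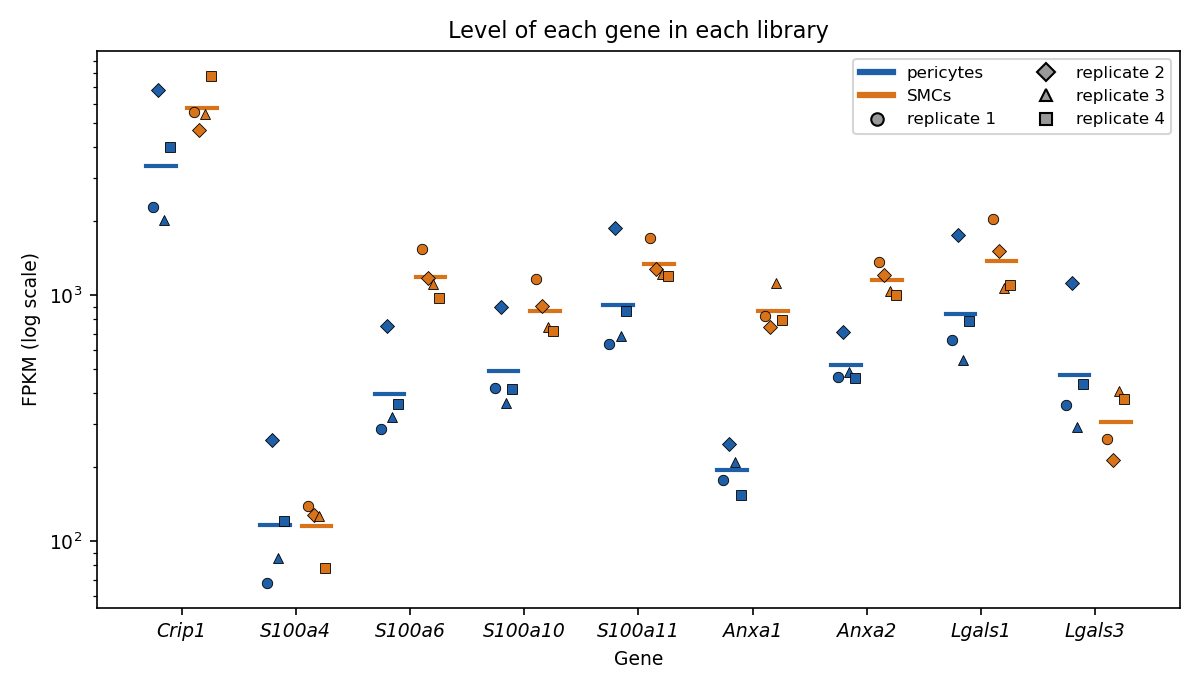
FPKM (log axis) of each of the 9 genes in the 4 pericyte libraries (blue) and the 4 SMC libraries (orange), where the symbol gives the replicate number and the bar the mean on the log scale. S100a6, Anxa1 and Anxa2 have every SMC library above every pericyte library, and pericyte replicate 2 (blue diamond) is the highest pericyte library for all 9 genes.

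Of the other 8 genes, 3 were higher in SMCs in limma's test over 27414 genes at a q value under 0.05, namely S100a6, Anxa1 and Anxa2. Among all genes tested, 11.2% were higher in SMCs, and among the 1312 genes that averaged 100 FPKM or more, 19.9% were. None of the 8 was higher in pericytes (0 also at an unadjusted p under 0.05), where 10.6% of all genes and 25.6% of those that averaged 100 FPKM or more were called. The median log2 difference, pericytes minus SMCs, was -0.77 over the 8 genes and 0.02 over all genes tested. The same 3 genes had every SMC library above every pericyte library, as did 12.5% of all genes. Only Anxa1 also passed a log2 difference of 2, the threshold for an enriched gene, as did 2.66% of all genes tested in that direction. S100a10, S100a11 and Lgals1 joined the called genes without pericyte replicate 2, which gave 6 of 8 (12% of all genes higher in SMCs). That library was the highest pericyte library for each of them, so their differences had to move toward SMCs without it.

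S100a6, which encodes calcyclin, was the S100 gene of the list that passed the test in FPKM as deposited. It had 286, 754, 320 and 364 FPKM in pericyte replicates 1 to 4, and 1547, 1177, 1110 and 974 FPKM in SMC replicates 1 to 4. All SMC libraries were above all pericyte libraries, and the gap was narrowest between pericyte replicate 2 and SMC replicate 4. The log2 difference was 1.57 (SE 0.32, q = 0.0114), or 2.97-fold, and it was 1.88 (SE 0.17, q = 0.000786) without pericyte replicate 2. Cacybp, which encodes the protein that binds calcyclin, went the other way and was higher in every pericyte library (114 to 157 FPKM) than in any SMC library (54.2 to 76.6 FPKM), with a log2 difference, SMCs minus pericytes, of -0.91 (SE 0.15, q = 0.00411); it was named after its values were seen.

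S100a4, also called fibroblast-specific protein and linked to motility, was the lowest of the list. Its FPKM was 68.1, 259, 85.9 and 121 in pericyte replicates 1 to 4 and 139, 128, 127 and 77.8 in SMC replicates 1 to 4. The lowest SMC library lay below 3 of the pericyte libraries, and the highest pericyte library lay above every SMC library. The log2 difference, SMCs minus pericytes, was -0.02 (SE 0.42, q = 0.987). Its sign turned to 0.22 under TPM scaling, 0.06 under quantile scaling and 0.36 without pericyte replicate 2, none of which passed the test. Both scalings moved the median gene as well, and relative to it S100a4 was at -0.0145 and 0.0065 (pericytes minus SMCs). With a trend on transcript length removed the difference, SMCs minus pericytes, was 1.91, which passed (SE 0.27, q = 0.00181, groups apart).

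S100a4 and S100a6 lie a few kilobases apart on chromosome 3 (90407692 to 90409967 and 90416816 to 90418336, NCBI Build 37, + strand, 3 exons each), with S100a5 between them (90412445 to 90415702) and S100a3 before them (90404137 to 90406624). The level of S100a5 was low, and it was higher in SMCs by 2.07 (log2, SE 0.29, q = 0.00237), with 3.03 to 7.77 FPKM in pericytes and 15.2 to 31.1 FPKM in SMCs. With the length trend removed, the log2 difference of S100a5, pericytes minus SMCs, was -4.49 (SE 0.31, q = 9.51e-05). S100a3 had 0.338 to 3.06 FPKM in pericytes and 3.45 to 4.54 FPKM in SMCs and did not pass the test in all 8 libraries (q = 0.0665), but passed without pericyte replicate 2 (log2 difference 1.496, SE 0.31, q = 0.0153). Among these neighbours, S100a4 was the gene with overlapping groups. The ratio of S100a6 to S100a4 within a library, which multiplying that library by a constant cannot change, was 4.20, 2.91, 3.73 and 2.99 in pericytes (3.46 ± 0.62, SD, n = 4) and 11.2, 9.17, 8.75 and 12.5 in SMCs (10.4 ± 1.76, SD, n = 4). The groups were apart, and pericyte replicate 2 was the lowest, next to pericyte replicate 4. With a trend on transcript length removed from each library, the log2 ratio was 2.18 to 2.91 in pericytes and 2.27 to 2.87 in SMCs, and the groups overlapped. The ratios are descriptions of genes chosen with these values known, and no test was made of them.

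S100a10 and S100a11 lie further along chromosome 3 (93359002 to 93368565 and 93324410 to 93330209, + strand). S100a10, which encodes p11, the partner of annexin A2, had 421, 900, 366 and 418 FPKM in pericyte replicates 1 to 4 and 1166, 907, 745 and 717 FPKM in SMC replicates 1 to 4. Pericyte replicate 2 lay within the SMC range, and the other pericyte libraries lay below it. The log2 difference was 0.82 (SE 0.31) and did not pass the test (q = 0.112), and without pericyte replicate 2 it was 1.11 (SE 0.18, q = 0.00677).

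S100a11, which encodes calgizzarin, the partner of annexin A1, had 635, 1873, 686 and 861 FPKM in pericyte replicates 1 to 4 and 1713, 1277, 1218 and 1204 FPKM in SMC replicates 1 to 4. Pericyte replicate 2 was above every SMC library, and the other pericyte libraries were below every SMC library. The log2 difference was 0.55 (SE 0.35, q = 0.355), and without pericyte replicate 2 it was 0.89 (SE 0.17, q = 0.011). With the length trend removed it was 2.39 (SE 0.15, q = 7.09e-05). S100a11 is the only gene of the list with near-identical copies elsewhere in the genome (3 copies with at least 80% of the transcript at 90% identity or more), so reads may have been shared. Of the genes listed over them, Gm5068, Gm7665 and Gm12854 reached at most 4.21 FPKM, while Uqcrh, whose locus holds a copy, had 538 to 1390 FPKM.

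Anxa1 had the largest log2 difference of the list in FPKM as deposited, though not with the length trend removed, where those of S100a11 and Crip1 were larger. It encodes annexin A1, which dampens the recruitment of leukocytes, and lies on chromosome 19 from 20447918 to 20465434 (- strand, 13 exons). Its FPKM was 178, 248, 211 and 155 in pericyte replicates 1 to 4 and 827, 742, 1126 and 794 in SMC replicates 1 to 4. Every SMC library was far above every pericyte library, and pericyte replicate 2 was close to the other pericyte libraries. The log2 difference was 2.14 (SE 0.19, q = 0.00028), or 4.40-fold, and it was 2.25 (SE 0.18, q = 0.000452) without pericyte replicate 2. The formyl peptide receptors, through which annexin A1 acts on leukocytes, were low: Fpr1 averaged 3.16 FPKM in pericytes and 2.56 FPKM in SMCs, Fpr2 2.05 and 2.09 FPKM, and Fpr3 under 0.1 FPKM in both (q = 0.928, 0.956 and 0.946).

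Anxa2, on chromosome 9 from 69301427 to 69339602 (+ strand, 9 exons in the longest transcript), had 465, 711, 490 and 461 FPKM in pericyte replicates 1 to 4 and 1372, 1215, 1042 and 1008 FPKM in SMC replicates 1 to 4. The groups were apart, with pericyte replicate 2 nearest to the SMC libraries. The log2 difference was 1.14 (SE 0.17, q = 0.00313), or 2.20-fold, and it was 1.28 (SE 0.12, q = 0.000869) without pericyte replicate 2. The ratio of S100a10 to Anxa2 was 0.905, 1.27, 0.748 and 0.907 in pericytes and 0.850, 0.747, 0.715 and 0.711 in SMCs, and the groups overlapped. With the length trend removed the log2 ratio was -0.67 to -0.25 in pericytes and -0.15 to 0.03 in SMCs, and the groups were apart. For the other partners, the ratio of S100a11 to Anxa1 was 3.58, 7.55, 3.26 and 5.55 in pericytes and 2.07, 1.72, 1.08 and 1.52 in SMCs. These groups were apart. With the length trend removed this log2 ratio was 0.94 to 1.75 in pericytes and 1.26 to 1.91 in SMCs, and the groups overlapped. The ratio of Anxa2 to Anxa1 was 2.69 ± 0.29 in pericytes and 1.37 ± 0.35 in SMCs (SD, n = 4 each), with the groups apart.

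Lgals1 and Lgals3 had log2 differences of opposite sign, and neither passed the test in all 8 libraries. Lgals1 encodes galectin-1, a secreted dimer, and lies on chromosome 15 from 78757155 to 78760895. It had 658, 1767, 548 and 783 FPKM in pericyte replicates 1 to 4 and 2049, 1516, 1067 and 1101 FPKM in SMC replicates 1 to 4. Pericyte replicate 2 was above 3 SMC libraries, and the other pericyte libraries were below all of them. The log2 difference was 0.72 (SE 0.40, q = 0.284), and without pericyte replicate 2 it was 1.07 (SE 0.26, q = 0.029).

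Lgals3 encodes galectin-3, the galectin with a collagen-like tail that macrophages make in large amounts, and lies on chromosome 14 from 47987426 to 48005835. Its FPKM was 358, 1128, 291 and 435 in pericyte replicates 1 to 4 and 262, 214, 409 and 378 in SMC replicates 1 to 4. The groups overlapped with and without pericyte replicate 2. The log2 difference, SMCs minus pericytes, was -0.64 (SE 0.44, q = 0.407), the only one of the list beyond its SE in that direction, and -0.22 (SE 0.27, q = 0.645) without pericyte replicate 2. Lgals3bp, which encodes a secreted glycoprotein that galectin-3 binds, had 37.5 to 55.4 FPKM in pericytes and 27.9 to 74.6 FPKM in SMCs (q = 0.949). Within a library the ratio of Lgals1 to Lgals3 was 1.84, 1.57, 1.89 and 1.80 in pericytes and 7.84, 7.08, 2.61 and 2.91 in SMCs. The groups were apart, and SMC replicates 1 and 2 lay well above SMC replicates 3 and 4.

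**Figure D2:**
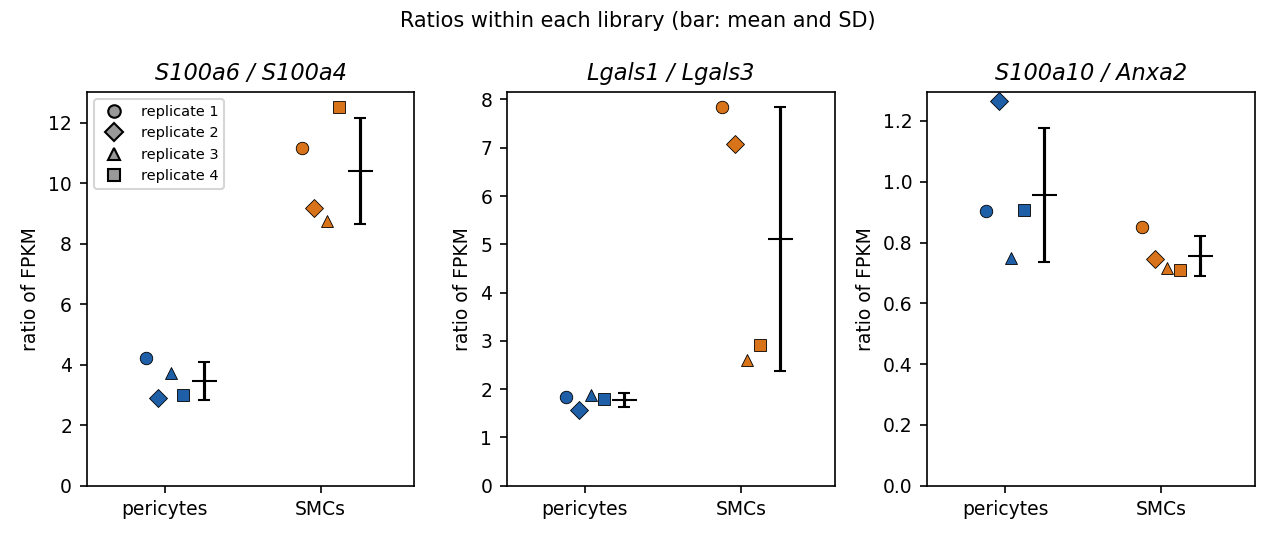
Ratio of FPKM of a pair of genes within each library (linear axes from 0), for S100a6 over S100a4, Lgals1 over Lgals3 and S100a10 over Anxa2, in pericytes (blue) and SMCs (orange), with mean and SD (n = 4). The first and second ratios separate the groups, with SMCs higher, and the third overlaps, from 0.748 to 1.27 in pericytes and from 0.711 to 0.8495 in SMCs.

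FPKM is per length, so levels were set in order across genes, although the values of pericyte replicate 2 and the difference between the groups still varied with length. In pericytes the order of mean FPKM was Crip1 (3793), S100a11 (1014), Lgals1 (939), Lgals3 (553), Anxa2 (532), S100a10 (526), S100a6 (431), Anxa1 (198) and S100a4 (134). Crip1 and S100a11 did not overlap across pericyte libraries, nor did S100a6 and Anxa1, and all other neighbours in this order overlapped. Without pericyte replicate 2 Lgals3 averaged 361 FPKM, below Anxa2 (472 FPKM) and S100a10 (402 FPKM). With the length trend removed the order differed in both groups. That step takes out only a library's deviation from the mean of both groups, so its values are not levels to rank genes by. In SMCs the order was Crip1 (5887), Lgals1 (1433), S100a11 (1353), S100a6 (1202), Anxa2 (1159), S100a10 (884), Anxa1 (872), Lgals3 (316) and S100a4 (118). There the neighbours from Lgals1 to Anxa1 overlapped, while Crip1 stood above them and Lgals3 and S100a4 stood below them and apart from each other. The 9 genes together made up 1.76% to 2.01% of the summed FPKM in SMCs and 0.699% to 1.22% in pericytes, with pericyte replicate 2 at the top of the pericyte range. The SMC maximum was SMC replicate 4, where Crip1 was chosen. Without Crip1 the share was 0.895% to 1.23% in SMCs, with SMC replicate 4 the lowest, and 0.417% to 0.642% in pericytes.

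Some pairs of the genes varied together within the groups. The correlation of the deviations of log2(FPKM + 1) from the group means, over 8 libraries, was 0.99 for S100a6 with S100a11, 0.99 for S100a10 with Lgals1 and 0.96 for S100a10 with Anxa2, and 0.96, 0.97 and 0.91 without pericyte replicate 2. In all values without that library, the group means still included it, so its effect was not fully removed. The correlations of Crip1 rested more on pericyte replicate 2, with 0.68 to S100a4, 0.71 to S100a6 and 0.65 to S100a10 over 8 libraries, and 0.27, 0.28 and 0.15 without it. Lgals3 followed Crip1 (0.89, and 0.76 without that library) more than it followed S100a10 (0.61, and -0.06 without it). Anxa1 was loosest, with 0.24 to Crip1, and -0.27 without that library. Over all 8 libraries and 13611 genes that averaged 1 FPKM or more, genes whose log2(FPKM + 1) was among the most like that of Crip1 were Pilra (Pearson's r = 0.963), Ech1 (0.960), Rai12 (0.957) and Atox1 (0.956). These correlations rest on 8 points or fewer that share group, library and scaling, and no test was made of them. All those of Crip1 include SMC replicate 4, the library that Crip1 was chosen by, so they are descriptions only.

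Pericyte replicate 2 was higher than the median of the other pericyte libraries by 2.98 times for Crip1, 3.02 for S100a4, 2.73 for S100a11, 2.15 for S100a10, 2.35 for S100a6, 2.69 for Lgals1, 3.15 for Lgals3, 1.40 for Anxa1 and 1.53 for Anxa2. The annexins, with transcripts of 1674 and 2280 bases, were the least raised. Lgals3, at 1419 bases, was raised more than the shorter S100 genes. Crip1, S100a4, S100a6, Lgals1 and Lgals3 lay above the middle 50% of genes of their length class. Between the groups, genes of under 700 bases that averaged 10 FPKM or more (on the log scale) had a median log2 difference, pericytes minus SMCs, of 0.63 (305 genes), against 0.03 for 700 to under 1500 bases (1165 genes), 0.06 for 1500 to under 3000 bases (2438 genes) and 0.15 for 3000 bases or more (2484 genes). Of the 4 listed genes under 700 bases, S100a4, S100a10, S100a11 and Crip1, none had a difference beyond 0.02 in the direction of that median.

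**Figure D3:**
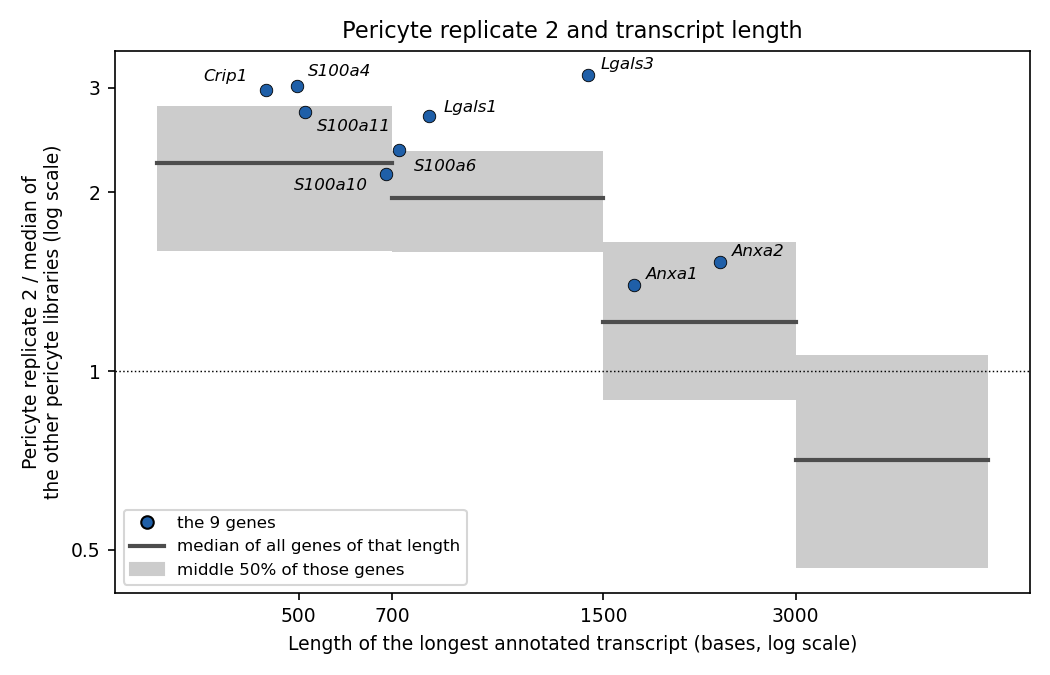
FPKM of pericyte replicate 2 over the median of the other pericyte libraries (log axis) against the length of the longest annotated transcript (log axis), with the 9 genes as points and the median and middle 50% of all genes that averaged 10 FPKM or more in pericytes as lines and boxes; the outer edges of the shortest and longest classes are open. The medians fall from 2.24 to 0.708 with length, and the 9 genes lie between 1.40 and 3.15.

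The number of genes called depended on the scaling of the libraries. After FPKM was rescaled to a common sum per library (TPM), S100a6, S100a10, S100a11, Anxa1, Anxa2 and Lgals1 were called higher in SMCs (6 of 8; 13.6% of all genes), with log2 differences from 0.79 (SE 0.19, q = 0.0245) for S100a11 to 2.38 (SE 0.17, q = 0.000155) for Anxa1. Quantile scaling called the same 6 genes (12.4% of all genes). TPM scaling moved the median of the 13612 genes that averaged 1 FPKM or more by -0.21 (log2, pericytes minus SMCs), and quantile scaling moved it by -0.07. Relative to those shifts the differences, pericytes minus SMCs, were -0.85 for S100a10, -0.58 for S100a11 and -0.75 for Lgals1 under TPM and -1.04, -0.86 and -1.06 under quantile scaling, beside -0.82, -0.55 and -0.72 from FPKM as deposited. With TPM 36.2% of all calls were higher in pericytes, and with FPKM as deposited 48.8% were. Leaving out any single library other than pericyte replicate 2 left 3 genes called. Removing a trend on transcript length from each library, which also takes out differences between the groups that follow length, called 7 of 8 (13.7% of all genes higher in SMCs), with Lgals3 the exception (-0.67, SE 0.34, SMCs minus pericytes, q = 0.232). It moved the shortest genes most, from -0.02 to 1.91 (SE 0.27, q = 0.00181) for S100a4, from 0.55 to 2.39 (SE 0.15, q = 7.09e-05) for S100a11 and, as a description, from 0.78 to 3.10 for Crip1. These moves exceeded 0.63, the median log2 difference (pericytes minus SMCs) of genes under 700 bases that averaged 10 FPKM or more. Whether the trend took out too much was not tested, so these values are not corrected estimates. S100a10 moved less, to 1.496 (SE 0.07, q = 1.96e-05).

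**Figure D4:**
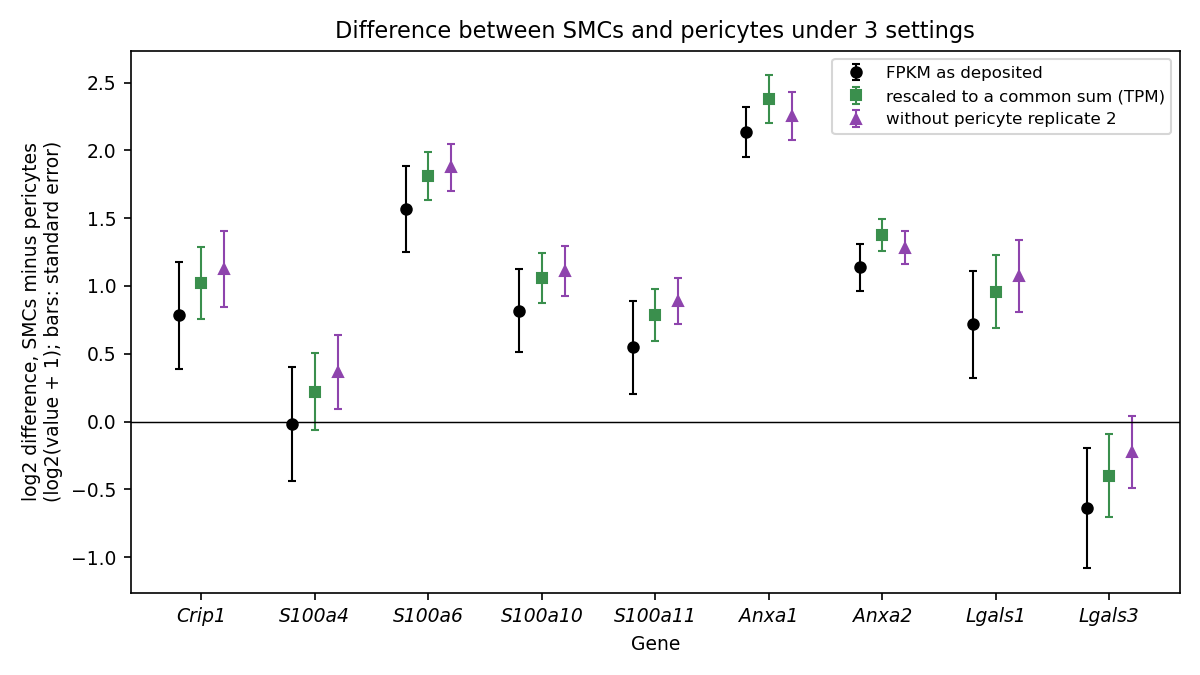
Log2 difference, SMCs minus pericytes, of each of the 9 genes with its standard error, from FPKM as deposited (black), after rescaling to a common sum (green) and without pericyte replicate 2 (purple). The differences of S100a6, S100a10, S100a11, Anxa1, Anxa2 and Lgals1 are above 0 in all 3 settings, Lgals3 is below 0 in all 3, and S100a4 changes sign. Rescaling also moved the median gene by -0.21 (log2, pericytes minus SMCs), and relative to it S100a4 was at -0.0145.

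The families were then counted without the 9 genes. Of 12 other S100 genes, S100a1, S100a5 and S100a16 were higher in SMCs (11.2% of all genes) and 0 were higher in pericytes (10.6% of all genes; 0 also at an unadjusted p under 0.05), with a median log2 difference of 0.66. Both under TPM (13.6% of all genes higher in SMCs) and without pericyte replicate 2 (12% of all genes), S100a3 and S100a13 were called as well, which made 5 of 12, with a median of 0.89 without that library. S100a1, known from the calcium handling of muscle, had 41.4 to 114 FPKM in pericytes and 185 to 241 FPKM in SMCs (log2 difference 1.84, SE 0.30, q = 0.00437). With the length trend removed its log2 difference, pericytes minus SMCs, was -2.57 (SE 0.17, q = 6.89e-05). S100a16 had 27.3 to 154 FPKM in pericytes and 317 to 457 FPKM in SMCs (2.38, SE 0.48, q = 0.0115).

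Most of the other annexin genes passed the test. Of 10 other annexin genes, Anxa3, Anxa4, Anxa5, Anxa7, Anxa8 and Anxa9 were higher in SMCs (11.2% of all genes) and Anxa6 was higher in pericytes (10.6% of all genes), with a median log2 difference of 0.88. Among genes with at least 1 FPKM in at least 4 libraries, the share higher in SMCs was 22.8%. Anxa5, whose protein is used to stain dying cells, had 213 to 470 FPKM in pericytes and 876 to 1380 FPKM in SMCs (1.81, SE 0.26, q = 0.0027). Anxa3 (2.09, SE 0.31, q = 0.0028), Anxa4 (1.79, SE 0.17, q = 0.000364) and Anxa7 (1.16, SE 0.15, q = 0.00177) also had their groups apart. Anxa6, the annexin with a doubled core and named here after its values were seen, had 158 to 247 FPKM in pericytes and 125 to 165 FPKM in SMCs (-0.59, SE 0.17, q = 0.0426), and its call was lost under TPM and quantile scaling, while that of Anxa9 was lost under TPM and without pericyte replicate 2.

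Of 6 other galectin genes listed, Lgals8 alone was called (1 of 6, beside 11.2% of all genes higher in SMCs), with 24.1 to 34.7 FPKM in pericytes and 43.1 to 54.9 FPKM in SMCs (0.73, SE 0.12, q = 0.00534; chosen after its values were seen). Lgals9 overlapped (154 to 409 FPKM in pericytes and 179 to 236 FPKM in SMCs, q = 0.702). Of 5 CRIP and CSRP genes other than Crip1, Crip2 and Csrp2 were higher in SMCs (2 of 5, beside 11.2% of all genes). Csrp2, whose LIM-domain protein is known from smooth muscle development, had 21.5 to 76.7 FPKM in pericytes and 126 to 200 FPKM in SMCs (1.75, SE 0.40, q = 0.019), and its call was lost when SMC replicate 4 or pericyte replicate 1 was left out (highest q = 0.0516). Csrp1 did not pass (0.94, SE 0.31, q = 0.0718).

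**Figure D5:**
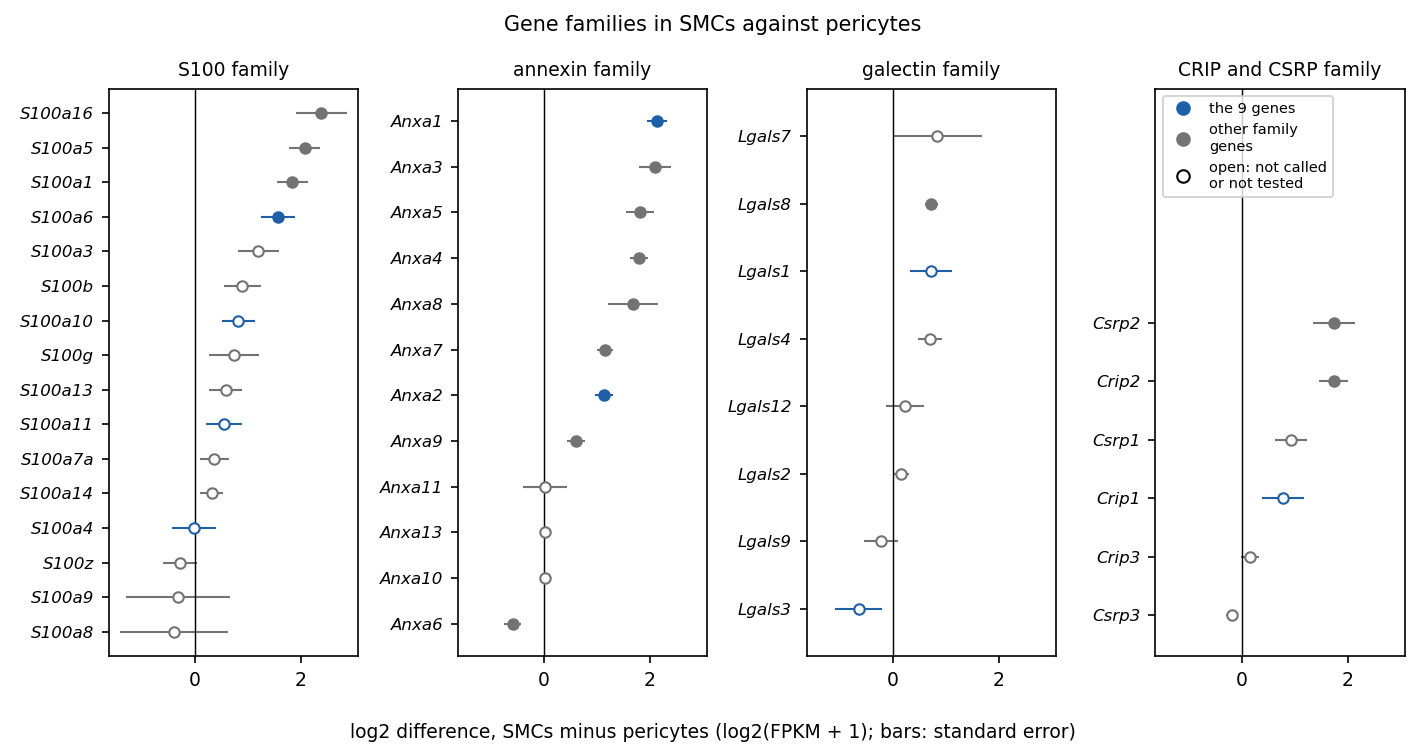
Log2 difference, SMCs minus pericytes, with its standard error, for the S100, annexin, galectin and CRIP and CSRP genes, with the 9 genes in blue and the other family genes in grey; filled points passed the test, and open points did not or, for Crip1, were not tested. Called genes lie to the right of 0 except Anxa6, at -0.59.

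Partners and receptors were mixed. Of 16 genes, Ahnak, Plat, Plau and Tlr4 were higher in SMCs and Cacybp was higher in pericytes, with a median log2 difference of 0.05 (4 and 1 of 16, beside 11.2% and 10.6% of all genes). Without pericyte replicate 2, Mgat5 was also called higher in pericytes (log2 difference, SMCs minus pericytes, -0.64, SE 0.18, q = 0.0422). Ahnak, which encodes a giant scaffold that binds the S100A10 and annexin A2 complex, was even within each group (33.3 to 36.96 FPKM in pericytes and 80.6 to 96.3 FPKM in SMCs) and higher in SMCs by 1.30 (log2, SE 0.07, q = 4.81e-05). Plat, the gene of tissue plasminogen activator, which docks on that complex, had 17.6 to 35.3 FPKM in pericytes and 145 to 197 FPKM in SMCs (2.70, SE 0.21, q = 0.000193). Plaur, the gene of the urokinase receptor, had 325 to 612 FPKM in pericytes and 127 to 508 FPKM in SMCs (log2 difference, SMCs minus pericytes, -1.17, SE 0.46, q = 0.123), and was with Cacybp 1 of 2 genes higher in pericytes at an unadjusted p under 0.05. Plg, the gene of plasminogen itself, was under 0.15 FPKM in every library. Ager and Tlr4, receptors for extracellular S100 proteins, were low, with 0.439 to 2.01 FPKM over all libraries for Ager (q = 0.174) and 1.61 to 2.62 FPKM in pericytes against 5.97 to 7.67 FPKM in SMCs for Tlr4 (1.41, SE 0.13, q = 0.000355; chosen after its values were seen).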

How the data were processed

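RNA was reverse transcribed and amplified with an ultra-low input SMART-Seq kit, and libraries were built with Nextera XT. The authors checked reads with FastQC, aligned them to NCBI Build 37 with Bowtie2 and TopHat and an Ensembl annotation, and deposited FPKM per gene and library. The program that computed FPKM, and whether reads were counted by strand, are not given in the sources used here. The FPKM table holds no read numbers, so depth is unknown and counting error cannot be stated; the number of libraries limits the precision.

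The fit used log2(FPKM + 1), a scale that understates changes of low genes, and the moderated test of limma 3.58.1 (R 4.3.3), with Benjamini-Hochberg adjustment (q value) over 27414 genes above 0 in at least 1 library. Calls used q under 0.05, and enriched genes also a log2 difference above 2. The fit was tested on simulated data. The sources do not say whether libraries share mice, so p-values measure only the spread between these pooled libraries.

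The 9 genes, the family lists and the marker lists were chosen with earlier results of these data known. Of the family lists, the text names genes called with a log2 difference above 1 and a mean of at least 10 FPKM in a group; all other genes named outside the 9 were chosen after their values were seen. Lgals6 and Plgrkt, and the marker Adgre1, are not listed under these symbols. A gene of the partner list and a gene similar to Crip1 are not reported here. Positions are from GENCODE vM1 (37195 of 37979 identifiers matched), copies were searched with BLAST 2.17.0, and figures were made with Python 3.11.15 and matplotlib 3.10.9. The alternatives were an offset of 0.1, a filter of 1 FPKM in at least 4 libraries, TPM, quantile and median-ratio scaling, a replicate block, an intensity trend, limma treat and each library left out. Removal of a trend on transcript length was added after seeing the data. The other tables of the study were not analysed here.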

Additional observations from a re-analysis of the deposited data

Results flagged for a closer look

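In 18 groups of 4 libraries (9 genes in each sort), the gap between the highest or lowest library and its nearest neighbour on the log2(FPKM + 1) scale was set against the whole range, and a library was taken to stand apart above Dixon's critical value, which chance passes in about 1 in 20 groups. The group of Crip1 in SMCs holds the value that Crip1 was chosen by, so it decides nothing and is not used. S100a10 in pericytes reached 0.845 and Anxa2 in pericytes 0.859, with pericyte replicate 2 on top each time (900 FPKM and 711 FPKM). S100a4 in SMCs reached 0.844, with SMC replicate 4 at the bottom (77.8 FPKM, against 127 to 139 FPKM in the other SMC libraries). S100a11 in SMCs reached 0.834, with SMC replicate 1 on top (1713 FPKM, against 1204 to 1277 FPKM).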

How the results depend on the processing

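S100a6, Anxa1 and Anxa2 stayed higher in SMCs under every alternative run and lost their calls only when a log2 threshold of 2 was placed inside the test (limma treat), which called 368 genes in all and 0 of the 8 (0.117% of genes tested were called higher in SMCs), against 5977 genes and 3 in the fit as reported. TPM and quantile scaling called 6 of the 8. Removing the transcript-length trend, which by construction also takes out any difference between the groups that follows length, called 7 (13.7% of genes higher in SMCs). For Crip1 without SMC replicate 4, the log2 difference, pericytes minus SMCs, passed the test under quantile scaling (-1.09, q = 0.0154) and with the length trend removed (-2.94, q = 0.00137), and with each other library left out it ranged from -0.98 to -0.40. On the same scale S100a4 changed sign under TPM (-0.22) and quantile scaling (-0.0623). Relative to the median gene, which these scalings also moved, it was at -0.0145 and 0.0065. S100a4 also changed sign without SMC replicate 4 (-0.17), pericyte replicate 2 (-0.36) or pericyte replicate 4 (-0.0013), and with the length trend removed (-1.91, which passed the test). Its range over single libraries left out was -0.36 to 0.27, and the cause was not tested. Leaving out single libraries gave 4832 to 6536 called genes and 3 to 6 of the 8, with 6 only without pericyte replicate 2, the highest pericyte library for each of the 8.

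Replicate numbers are shared by the groups. Deviations of same-numbered libraries from their group means correlated at 0.0794 to 0.474 (mean 0.327) across 13612 genes, which is not above 0.1 for each pair. For replicates 3 and 4 the same-numbered pair was the highest of their pairs (0.437 and 0.474). The SMC library of replicate 1, however, correlated better with pericyte replicate 2 (0.538) than with its own number. The numbers were therefore not taken to pair the libraries. With the replicate block 6153 genes and 3 of the 8 were called (S100a6 q = 0.0347, Anxa1 q = 0.00381, Anxa2 q = 0.0112), and Crip1 without SMC replicate 4 had -0.72 (q = 0.485).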

Other observations

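S100a8 and S100a9 encode the subunits of calprotectin, a protein of neutrophils and monocytes. They were the S100 genes that varied most within the groups on the log2(FPKM + 1) scale. S100a8 had 277 to 2202 FPKM in pericytes and 126 to 1642 FPKM in SMCs, and S100a9 had 164 to 1108 FPKM and 77.0 to 890 FPKM. Both were at the level of the S100 genes of the list in some libraries, and neither passed the test (q = 0.841 and q = 0.864, limma with Benjamini-Hochberg adjustment). The 7 neutrophil markers also varied widely, from 698 to 2840 FPKM in sum in pericytes and from 95.02 to 1214 FPKM in SMCs, and Mpo and Elane were higher in pericytes. The part of neutrophil RNA in these levels was not tested.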
